A study of Mus musculus with 12 samples.

Results

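The elastic fibre genes described here encode elastin, the fibrillin microfibril around it and the proteins that join them. Of 10 genes considered (Eln, Fbn1, Fbn2, Fbln1, Fbln2, Fbln5, Efemp1, Efemp2, Mfap5 and Ltbp2), 8 had a feature whose array annotation gives that symbol alone, each with 1 feature among the 28853 on the array. Fbn1 and Efemp2 were not analysed here. All 8 features passed the filter on low mean signal and entered the test over all retained features. Expression was measured in whole ankle joints of 12 mice on the Affymetrix Mouse Gene 1.0 ST array, with 1 array per mouse and 4 groups of 3 mice. These were arthritic Mmp8-/- mice, arthritic Mmp8+/+ mice, Mmp8-/- control mice and Mmp8+/+ control mice, and the arrays asked which transcripts differ with arthritis and with the loss of Mmp8, the neutrophil collagenase. All mice were labelled male and C57BL/6. According to the methods, the Mmp8-/- line had been backcrossed for 12 generations and mice were 6 to 8 weeks old. Arthritic mice received 150 µl of serum from K/BxN mice, which carries antibodies that cause joint inflammation, on days 0 and 2, and their ankles were taken at day 7. The control mice had no arthritis. Arthritis was therefore passively transferred and was seen at 1 time, and the deletion was present in every tissue. Mice are numbered within a group only to name them.

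Elastic fibres give ligament, tendon sheath, skin, synovium and vessel wall their recoil. Tropoelastin, the soluble elastin monomer, is laid down on a scaffold of fibrillin microfibrils, crosslinked by lysyl oxidases and guided into place by fibulins. The same microfibrils hold latent TGF-beta through latent TGF-beta binding proteins.

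The array labelled Mmp8-/- control mouse 2 had a log2 Mmp8 signal of 10.65, while the remaining 5 from Mmp8-/- mice lay between 4.64 and 5.54 and the 6 from Mmp8+/+ mice between 10.21 and 11.16. Xist, expressed from the inactive X chromosome of females, was at 10.92 on the array labelled Mmp8-/- control mouse 1 and 10.42 on that labelled Mmp8+/+ control mouse 1, against 4.66 to 5.41 on the other 10 arrays. The Y-linked gene Eif2s3y was at 4.16 and 4.02 on those 2 arrays and between 7.94 and 9.27 on the others. These 3 arrays therefore go against a label, and the results that change without them are given beside each gene. The joint markers Prg4, which encodes the lubricant of synovial fluid, and Col2a1, the collagen of cartilage, lay between 12.88 and 13.47 and between 8.91 and 10.33 on the 12 arrays. Members of the 8-gene joint list moved both ways with arthritis at a false discovery rate (FDR) of 5% in limma. In Mmp8-/- mice 2 were higher and 2 lower, beside 7.92% and 13.7% of all features tested. In Mmp8+/+ mice 1 was higher and 1 lower, beside 7.2% and 11.7%. Averaged over genotypes 3 were higher and 3 lower, beside 19.5% and 22.6%. Chad, which encodes the cartilage protein chondroadherin, fell, with log2 changes of -3.40 in Mmp8-/- and -3.31 in Mmp8+/+ mice. Acan, the proteoglycan aggrecan of cartilage, rose by 0.58 in Mmp8-/- and 0.71 in Mmp8+/+ mice. Their part in the changes of the elastic fibre genes was not tested. Array medians lay between 6.74 and 6.82.

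Elastin, fibrillin-2, Ltbp2 and fibulin-2 rose in the arthritic joints of both genotypes, by 1.74- to 2.43-fold in Mmp8-/- and by 2.50- to 3.14-fold in Mmp8+/+ mice. Fibulin-5 and Efemp1 (fibulin-3) fell in both and were 1.57- to 2.06-fold lower. Mfap5 rose in Mmp8+/+ mice, and Fbln1 passed the test in neither genotype. At an FDR of 5% in limma, 4 of 8 genes were higher and 2 lower in arthritic than in control Mmp8-/- mice, beside 7.92% and 13.7% of all features tested. In Mmp8+/+ mice, 5 were higher and 2 lower, beside 7.2% and 11.7%. Without the 3 arrays that go against a label, which leaves 1 Mmp8-/- control mouse, fewer of the 8 genes passed in each genotype. Fewer of all features passed too. The log2 fold changes in Mmp8-/- mice were then 0.84 for Eln, 1.16 for Fbn2, 1.39 for Ltbp2 and 1.15 for Fbln2. They were -0.94 for Fbln5 and -0.66 for Efemp1. With all 12 arrays, the median log2 fold change of the 8 genes was 0.50 in Mmp8-/- and 1.0 in Mmp8+/+ mice. That of all features lay within 0.01 of 0 in both. In Mmp8-/- mice the arthritic and control ranges did not overlap for 6 genes, with 4 above and 2 below, beside 18.3% and 21% of all features. In Mmp8+/+ mice they did not overlap for any of the 8 genes, with 6 above and 2 below, beside 18.6% and 22.3%.

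**Figure D1:**
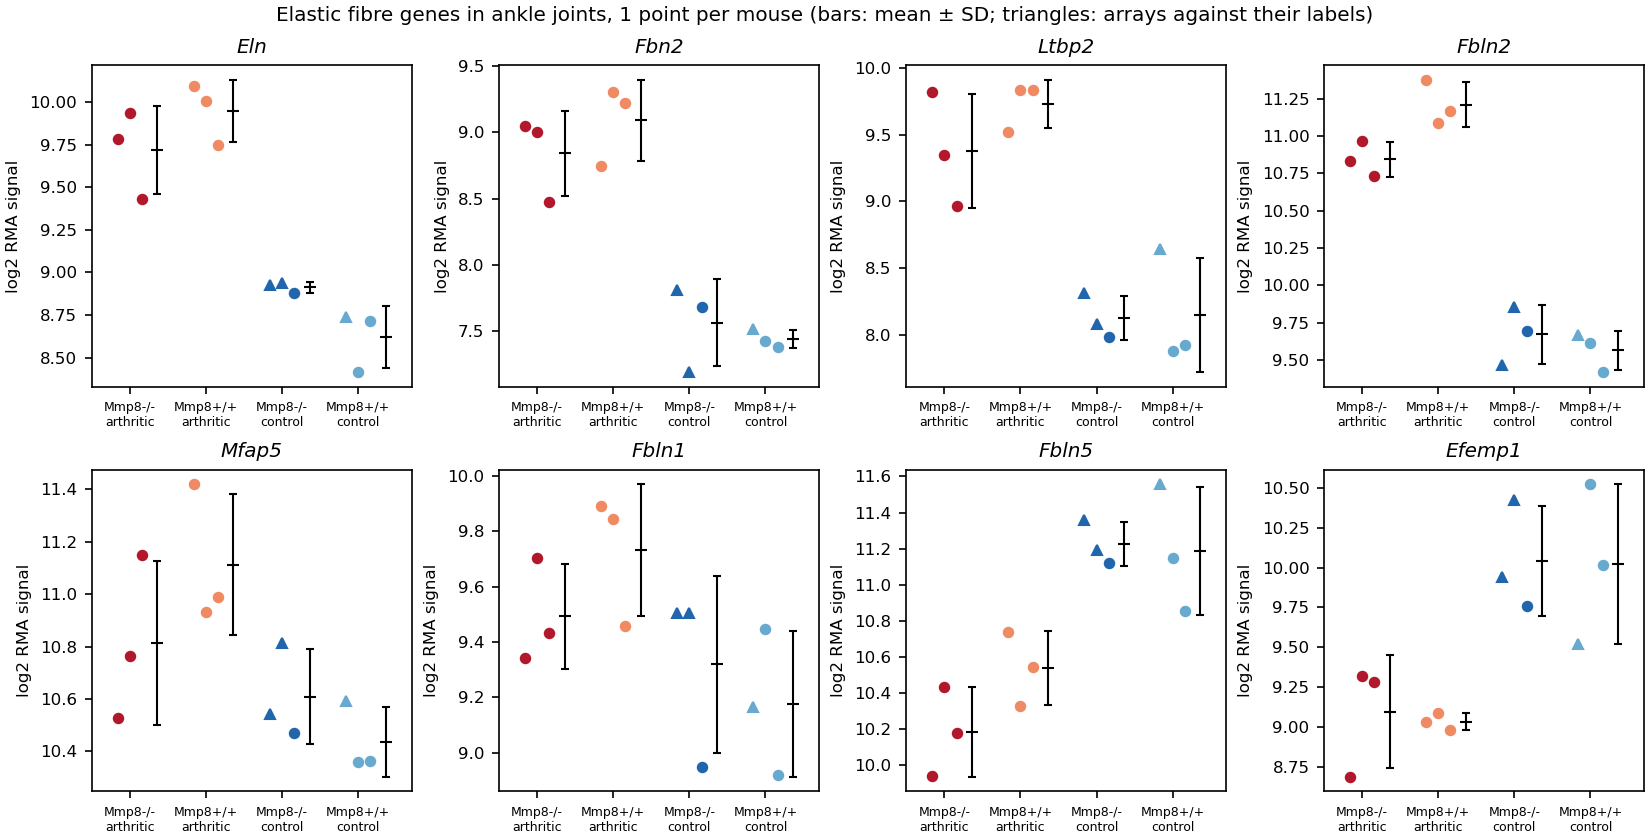
Log2 RMA signal of the 8 elastic fibre genes in each mouse, 1 panel per gene with its own vertical axis and 1 point per mouse, in arthritic and control mice of each genotype, with the group mean and SD (n = 3). Triangles are the 3 arrays that go against a label. Eln, Fbn2, Ltbp2 and Fbln2 lie higher in all 6 arthritic mice than in any control mouse, and Fbln5 and Efemp1 lie lower.

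Eln encodes tropoelastin, the core of the fibre. Its log2 signal was 9.78, 9.93 and 9.43 in arthritic Mmp8-/- mice, 10.096, 10.004 and 9.746 in arthritic Mmp8+/+ mice, 8.92, 8.94 and 8.88 on the arrays labelled Mmp8-/- control, and 8.74, 8.41 and 8.72 in Mmp8+/+ control mice. Every arthritic mouse lay above every control mouse, and the 2 arthritic groups overlapped. The log2 fold change with arthritis was 0.80 (SE 0.167, adjusted p = 0.00458 by limma) in Mmp8-/- mice and 1.32 (SE 0.167, adjusted p = 0.000104) in Mmp8+/+ mice. Without the 3 arrays against their labels, which leaves 1 Mmp8-/- control mouse that is assumed to vary like the other groups, the value in Mmp8-/- mice was 0.84 and no longer passed (adjusted p = 0.150 by limma).

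Fbn2 encodes fibrillin-2, a backbone protein of microfibrils best known from developing tissue. Its log2 signal was 9.049, 9.002 and 8.475 in arthritic Mmp8-/- mice, 8.74, 9.31 and 9.22 in arthritic Mmp8+/+ mice, 7.81, 7.19 and 7.69 on the arrays labelled Mmp8-/- control, and 7.51, 7.42 and 7.38 in Mmp8+/+ control mice. The lowest arthritic mouse was Mmp8-/- mouse 3, which was still above all 6 controls. The arthritis effect on the log2 scale was 1.28 (SE 0.209, adjusted p = 0.000864 by limma) in Mmp8-/- mice and 1.65 (SE 0.209, adjusted p = 0.000107) in Mmp8+/+ mice. Without the 3 arrays the Mmp8-/- value was 1.16 and missed the threshold (adjusted p = 0.0684 by limma).

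Ltbp2, a member of the latent TGF-beta binding protein family that attaches to fibrillin but does not bind latent TGF-beta itself, had a log2 signal of 9.82, 9.35 and 8.97 in arthritic Mmp8-/- mice, 9.52, 9.83 and 9.83 in arthritic Mmp8+/+ mice, 8.32, 8.09 and 7.99 on the arrays labelled Mmp8-/- control, and 8.64, 7.88 and 7.93 in Mmp8+/+ control mice. All arthritic mice were above all controls, with the widest spreads in arthritic Mmp8-/- and Mmp8+/+ control mice (SD 0.427 in each, n = 3). The log2 fold change was 1.25 (SE 0.234, adjusted p = 0.00228 by limma) in Mmp8-/- mice and 1.58 (SE 0.234, adjusted p = 0.000375) in Mmp8+/+ mice. Both passed without the 3 arrays, at 1.39 in Mmp8-/- and 1.82 in Mmp8+/+ mice.

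Mfap5 encodes MAGP-2, a small glycoprotein on the surface of microfibrils. Its log2 signal was 10.53, 10.77 and 11.15 in arthritic Mmp8-/- mice, 11.42, 10.93 and 10.99 in arthritic Mmp8+/+ mice, 10.54, 10.81 and 10.47 on the arrays labelled Mmp8-/- control, and 10.59, 10.36 and 10.36 in Mmp8+/+ control mice. The arthritic and control ranges overlapped in Mmp8-/- mice and were apart in Mmp8+/+ mice. The log2 fold change with arthritis was 0.21 (SE 0.189, adjusted p = 0.437 by limma) in Mmp8-/- mice and 0.68 (SE 0.189, adjusted p = 0.0228) in Mmp8+/+ mice. The call in Mmp8+/+ mice was lost without Mmp8+/+ control mouse 2 (0.64, adjusted p = 0.0719 by limma), control mouse 3 (0.64, 0.0559) or arthritic mouse 1 (0.52, 0.112), without both Xist arrays (0.75, 0.0506) and without the 3 arrays against their labels (0.75, 0.0607).

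Among the fibulins, a family of matrix glycoproteins, the members moved in opposite directions. Fbln2 had a log2 signal of 10.83, 10.97 and 10.73 in arthritic Mmp8-/- mice, 11.38, 11.09 and 11.17 in arthritic Mmp8+/+ mice, 9.46, 9.86 and 9.69 on the arrays labelled Mmp8-/- control, and 9.67, 9.61 and 9.42 in Mmp8+/+ control mice. Its 3 arthritic Mmp8+/+ mice were the highest of all, the 3 arthritic Mmp8-/- mice came next, and the controls of the 2 genotypes overlapped. The arthritis effect on the log2 scale was 1.17 (SE 0.155, adjusted p = 0.000156 by limma) in Mmp8-/- mice and 1.65 (SE 0.155, adjusted p = 9.92e-06) in Mmp8+/+ mice. Both passed without the 3 arrays.

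Fbln1, a fibulin of basement membranes and elastic fibres, had a log2 signal of 9.34, 9.70 and 9.43 in arthritic Mmp8-/- mice, 9.89, 9.85 and 9.46 in arthritic Mmp8+/+ mice, 9.50, 9.50 and 8.95 on the arrays labelled Mmp8-/- control, and 9.16, 9.45 and 8.92 in Mmp8+/+ control mice. The Mmp8-/- groups overlapped, and the lowest arthritic Mmp8+/+ mouse lay just above the highest Mmp8+/+ control. The log2 fold change was 0.17 (SE 0.200, adjusted p = 0.541 by limma) in Mmp8-/- mice and 0.56 (SE 0.200, adjusted p = 0.0661) in Mmp8+/+ mice. The Mmp8+/+ value passed with each array centred on its mean (0.60, adjusted p = 0.0456 by limma), after quantile normalization of the tested features (0.65, 0.0281) and without arthritic Mmp8+/+ mouse 3 (0.69, 0.0498). In Mmp8-/- mice it was -0.01 without the array labelled Mmp8-/- control mouse 3.

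Fbln5, which tethers tropoelastin to microfibrils and to cell-surface integrins, had a log2 signal of 9.94, 10.44 and 10.18 in arthritic Mmp8-/- mice, 10.74, 10.33 and 10.54 in arthritic Mmp8+/+ mice, 11.36, 11.19 and 11.12 on the arrays labelled Mmp8-/- control, and 11.56, 11.15 and 10.86 in Mmp8+/+ control mice. All 6 arthritic mice were below all 6 controls, by a narrow margin in Mmp8+/+ mice. The log2 fold change was -1.04 (SE 0.194, adjusted p = 0.00226 by limma) in Mmp8-/- mice, and -0.65 (SE 0.194, adjusted p = 0.0313) in Mmp8+/+ mice. The fall in Mmp8+/+ mice lost its call without control mouse 1, 1 of the 2 Xist arrays (-0.46, adjusted p = 0.150 by limma), control mouse 2 (-0.67, 0.0669), arthritic mouse 2 (-0.55, 0.115) or arthritic mouse 3 (-0.65, 0.0716), without both Xist arrays (-0.46, 0.170) and without all 3 arrays against their labels (-0.46, 0.212). Without all 3 arrays the Mmp8-/- value was -0.94 and no longer passed (adjusted p = 0.105 by limma).

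Efemp1, encoding fibulin-3, which in mice is needed for the elastic fibres of fascia, had a log2 signal of 8.69, 9.32 and 9.28 in arthritic Mmp8-/- mice, 9.03, 9.09 and 8.98 in arthritic Mmp8+/+ mice, 9.94, 10.43 and 9.76 on the arrays labelled Mmp8-/- control, and 9.52, 10.52 and 10.02 in Mmp8+/+ control mice. Arthritic mice lay below controls in both genotypes, and the spread was widest in Mmp8+/+ control mice (SD 0.499, n = 3) and narrowest in arthritic Mmp8+/+ mice (SD 0.0542). The log2 fold change was -0.94 (SE 0.247, adjusted p = 0.0165 by limma) in Mmp8-/- and -0.99 (SE 0.247, adjusted p = 0.0129) in Mmp8+/+ mice. The Mmp8+/+ call was lost without control mouse 2 (-0.74, adjusted p = 0.0625 by limma). The Mmp8-/- call was lost without the array labelled Mmp8-/- control mouse 2 (-0.75, adjusted p = 0.0730 by limma), without arthritic mouse 1 (-0.74, 0.0750) and without all 3 arrays against their labels (-0.66, 0.325).

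Averaged over the 2 genotypes, 5 of 8 genes were higher and 2 lower in arthritic mice at an FDR of 5% (limma), beside 19.5% and 22.6% of all features. The ranges of the 6 arthritic and 6 control mice were apart for 4 genes above and 2 below, beside 7.45% and 12.1% of all features. The averaged log2 fold change was 1.47 for Fbn2, 1.41 for Ltbp2, 1.41 for Fbln2 and 1.06 for Eln. It was 0.44 for Mfap5 (adjusted p = 0.0176 by limma), whose groups overlapped, and 0.36 for Fbln1 (adjusted p = 0.0506), which did not pass. Fbln1 passed in 7 of the 21 other settings. It did so after quantile normalization (0.49, adjusted p = 0.0106 by limma), after centring each array on its mean (0.42, 0.0254) and with an intensity trend (0.36, 0.0457). It also passed without Mmp8+/+ control mouse 2 (0.43, 0.0341), the array labelled Mmp8-/- control mouse 2 (0.41, 0.0479), arthritic Mmp8+/+ mouse 3 (0.43, 0.0333) or arthritic Mmp8-/- mouse 1 (0.40, 0.0485). The Mfap5 call was lost without arthritic Mmp8+/+ mouse 1 (0.36, adjusted p = 0.05004 by limma) and without the 3 arrays (0.55, 0.0662). Fbln5 fell by 0.85 and Efemp1 by 0.96 on the log2 scale.

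**Figure D2:**
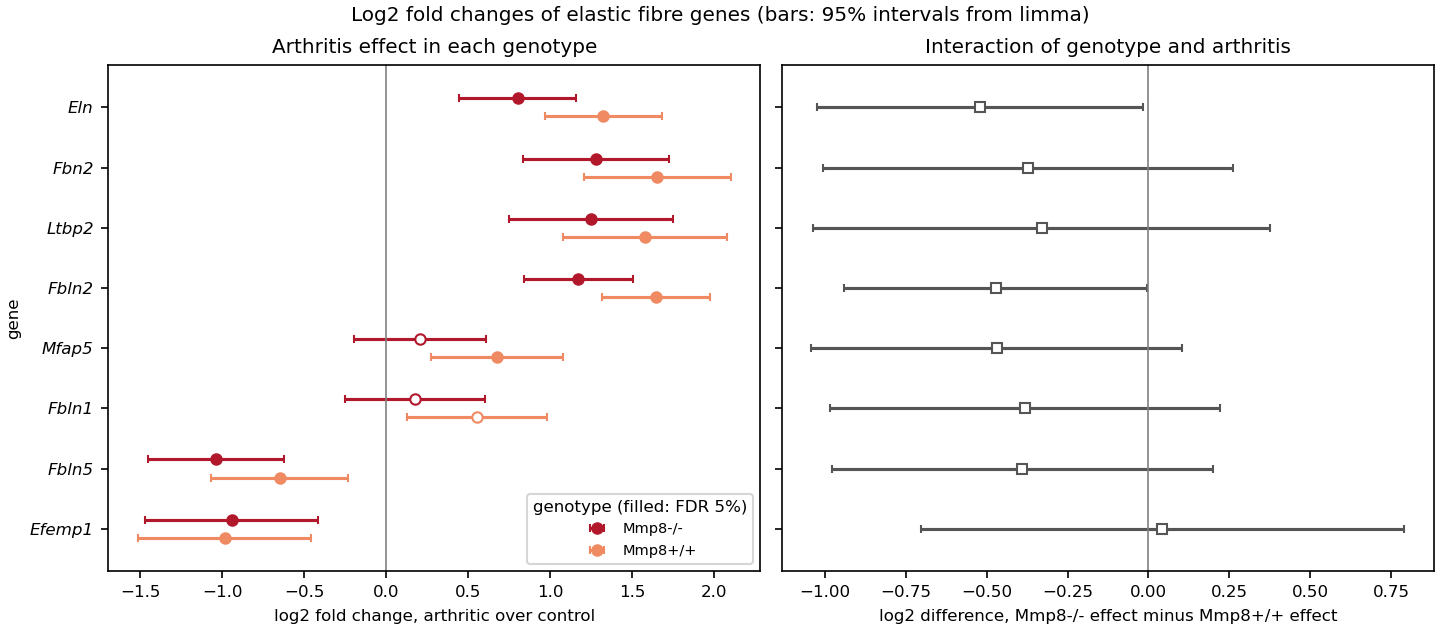
Left, log2 fold change of arthritic over control mice for each elastic fibre gene in Mmp8-/- (dark red) and Mmp8+/+ (orange) mice, with 95% intervals from limma and filled points for an FDR of 5%. Right, the Mmp8-/- effect minus the Mmp8+/+ effect with its 95% interval. Of the 8 differences, 7 lie below 0 and none passed an FDR of 5%.

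None of the 8 genes passed the test for a difference between the arthritis effects of the 2 genotypes at an FDR of 5%. The interaction, the Mmp8-/- effect minus the Mmp8+/+ effect, was below 0 for 7 of 8 genes, with a median of -0.39 on the log2 scale. It was -0.52 for Eln (95% interval -1.03 to -0.02, unadjusted p = 0.0434 by limma) and -0.47 for Fbln2 (95% interval -0.94 to -0.00456, unadjusted p = 0.0481). The adjusted p was 0.999879 for all 8 genes, and ordinary linear regression called 0 of them. The other values were -0.47 for Mfap5, -0.39 for Fbln5, -0.38 for Fbln1, -0.37 for Fbn2, -0.33 for Ltbp2 and 0.04 for Efemp1. An interaction below 0 is a smaller rise in Mmp8-/- mice for the genes that rose, and for Fbln5 a larger fall. Over all features limma called 0 (0%) for the interaction, with 576 at an unadjusted p under 0.05. Keratinocyte markers moved with it, since the median interaction of the 6 tested was -1.5, with arthritis medians of -1.04 in Mmp8-/- and 0.56 in Mmp8+/+ mice and none passing for the interaction. The part of skin in the interaction values was not tested. Fbln2 is among the genes that the study picked on these arrays for unequal changes, so its value is not independent evidence.

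Between arthritic Mmp8-/- and arthritic Mmp8+/+ mice none of the 8 genes passed the test, and 1 feature of all those tested did (0.00541%). That feature was a keratinocyte marker. Mmp8 itself did not pass, with a mean log2 signal of 4.95 in arthritic Mmp8-/- and 10.49 in arthritic Mmp8+/+ mice. Its SD was 3.30 on the arrays labelled Mmp8-/- control, and the test shares 1 spread over the 4 groups. A gene that did not pass can therefore still differ. The averages were lower in arthritic Mmp8-/- mice for 7 of 8 genes, with a median difference of -0.27, beside -0.0067 for all features. These signs, too, come from the same mice and are not independent of each other. Fbln2 differed by -0.37 (95% interval -0.70 to -0.04, unadjusted p = 0.0321, adjusted p = 0.9997 by limma), and its 3 arthritic Mmp8-/- mice lay below the 3 arthritic Mmp8+/+ mice. That was 1 of 8 genes, beside 3.34% of all features. The other 7 genes overlapped between genotypes, with differences of -0.35 for Fbln5, -0.35 for Ltbp2, -0.30 for Mfap5, -0.25 for Fbn2, -0.24 for Fbln1, -0.23 for Eln and 0.06 for Efemp1. Limma gave 523 features an unadjusted p under 0.05 in this comparison, among them 1 of the 8 genes. Keratinocyte markers moved with this contrast, since their mean log2 signal was 7.68 to 8.08 in arthritic Mmp8-/- and 9.02 to 10.03 in arthritic Mmp8+/+ mice, with 1 of 6 markers passing as lower. The part of skin in these differences was not tested.

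Between control mice of the 2 genotypes none of the 8 genes and no feature tested (0%) passed at an FDR of 5%, with 596 features and 0 of the 8 genes at an unadjusted p under 0.05 by limma. The differences of Mmp8-/- minus Mmp8+/+ control mice lay between -0.02 for Ltbp2 and 0.29 for Eln, with a median of 0.11. Eln, at 0.29 (95% interval -0.07 to 0.65, adjusted p = 0.9999 by limma), was the 1 gene whose arrays labelled Mmp8-/- control all lay above those labelled Mmp8+/+ control, beside 4% of all features. The interaction and this comparison share control arrays, 3 of which go against a label. With these left out, the interaction was -0.54 for Eln, -0.55 for Fbln2, -0.01 for Fbln1 and 0.58 for Efemp1, and none passed.

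Over the 12 arrays, with each profile centred on its own mean, the smallest root mean square difference was between Fbn2 and Ltbp2, at 0.228 log2 units, followed by Fbln1 and Mfap5 at 0.241 and Eln and Fbln2 at 0.248. The 2 genes that fell, Fbln5 and Efemp1, differed by 0.397, and the most unlike pair was Efemp1 and Ltbp2 at 1.30. These are descriptions over 12 arrays that share the arthritis effect. Within groups, Mmp8+/+ control mouse 1 was the highest of its 3 mice for 6 of 8 genes, and the array labelled Mmp8-/- control mouse 3 was the lowest of its 3 for 6 of 8. Arthritic Mmp8-/- mouse 2 was the highest of its group for 5 genes and the lowest for 0.

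Promoter windows are shown for genes that rose and for genes that fell, so that the letters upstream of both kinds can be set side by side. RefSeq's promoter table, on GRCm38.p6, held windows for 7 of the 10 genes. Each sequence is the 250 bases before a transcription start, 5′ to 3′ on the gene's strand, in lower case with motif matches in capitals. Fbln2 and Ltbp2 rose in both genotypes, and Fbln5 and Efemp1 fell. Fbln2 lies at chr6:91212514-91212763 on the plus strand, Ltbp2 at chr12:84876492-84876741 on the minus strand, Fbln5 at chr12:101819120-101819369 on the minus strand (the second of its 2 starts) and Efemp1 at chr11:28852955-28853204 on the plus strand.
Fbln2: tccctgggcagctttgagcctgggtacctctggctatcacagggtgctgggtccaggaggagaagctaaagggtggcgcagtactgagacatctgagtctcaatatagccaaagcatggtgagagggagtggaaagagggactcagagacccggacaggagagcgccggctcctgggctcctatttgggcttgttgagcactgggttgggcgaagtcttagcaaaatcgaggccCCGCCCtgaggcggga
Ltbp2: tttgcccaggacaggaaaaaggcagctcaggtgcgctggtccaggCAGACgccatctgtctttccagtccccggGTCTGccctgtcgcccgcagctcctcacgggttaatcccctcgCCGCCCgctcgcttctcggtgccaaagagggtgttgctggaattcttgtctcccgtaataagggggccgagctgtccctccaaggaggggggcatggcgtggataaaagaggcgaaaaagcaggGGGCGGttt
Fbln5: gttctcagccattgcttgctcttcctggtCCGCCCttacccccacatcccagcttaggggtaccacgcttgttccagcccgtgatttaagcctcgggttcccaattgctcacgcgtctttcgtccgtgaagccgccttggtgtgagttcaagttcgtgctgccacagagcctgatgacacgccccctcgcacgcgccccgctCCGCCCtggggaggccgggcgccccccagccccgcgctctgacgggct
Efemp1: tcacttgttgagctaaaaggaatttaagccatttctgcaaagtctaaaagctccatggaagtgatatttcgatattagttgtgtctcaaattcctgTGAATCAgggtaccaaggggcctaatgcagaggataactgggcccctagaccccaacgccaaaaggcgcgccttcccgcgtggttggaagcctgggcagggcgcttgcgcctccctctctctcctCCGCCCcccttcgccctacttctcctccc

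The motifs searched on both strands were the GC box GGGCGG, the TATA box TATAAA, the SMAD site CAGAC and the TEAD site GGAATG. A loose AP-1 pattern, TGANTCA with any base at its centre, was searched too. A GC box was in all 4 windows shown, at -16 in Fbln2, at -133 and -9 in Ltbp2, at -221 and -48 in Fbln5 and at -29 in Efemp1, and in 32.7% of the 32851 windows of this length in the table. Ltbp2 also had the SMAD letters at -205 and -176, which 42.2% of windows hold. Efemp1 matched the loose AP-1 pattern at -154, with A at its centre, and 6.75% of windows hold that pattern. The TATA box, in 12.4% of windows, and the TEAD site, in 12.6%, were in none of the 4. The other start of Fbln5 had a window with no GC box and with the SMAD letters at -199 and -15, so a GC box in all 4 genes depends on the window shown. A match is a description of these letters only.

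The proteins that bind microfibrils and elastin moved in both directions. Of 19 such genes tested, 3 rose and 5 fell in arthritic Mmp8-/- mice, with a median log2 fold change of -0.18. Of all features, 7.92% rose and 13.7% fell there. In Mmp8+/+ mice 7 rose and 4 fell, with a median of 0.06, beside 7.2% and 11.7% of all features. Mfap4, a microfibril protein that binds elastin, rose by 1.06 (SE 0.191, adjusted p = 0.00173 by limma) in Mmp8-/- and 2.00 (adjusted p = 1.11e-05) in Mmp8+/+ mice. Vcan, the large proteoglycan versican that binds fibrillin, rose by 1.618 in Mmp8-/- and 1.501 in Mmp8+/+ mice. Ltbp4, which binds fibulin-5 in elastic fibre assembly, fell, with log2 changes of -1.47 in Mmp8-/- and -1.30 in Mmp8+/+ mice, and Mmrn1, a multimerin of platelets and endothelium, with -1.91 in Mmp8-/- and -1.89 in Mmp8+/+ mice. Mfap2, encoding the microfibril glycoprotein MAGP-1, rose in Mmp8+/+ mice by 1.49, and Emilin1, at the interface of elastin and microfibril, by 1.02 in Mmp8-/- and 1.18 in Mmp8+/+ mice.

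**Figure D3:**
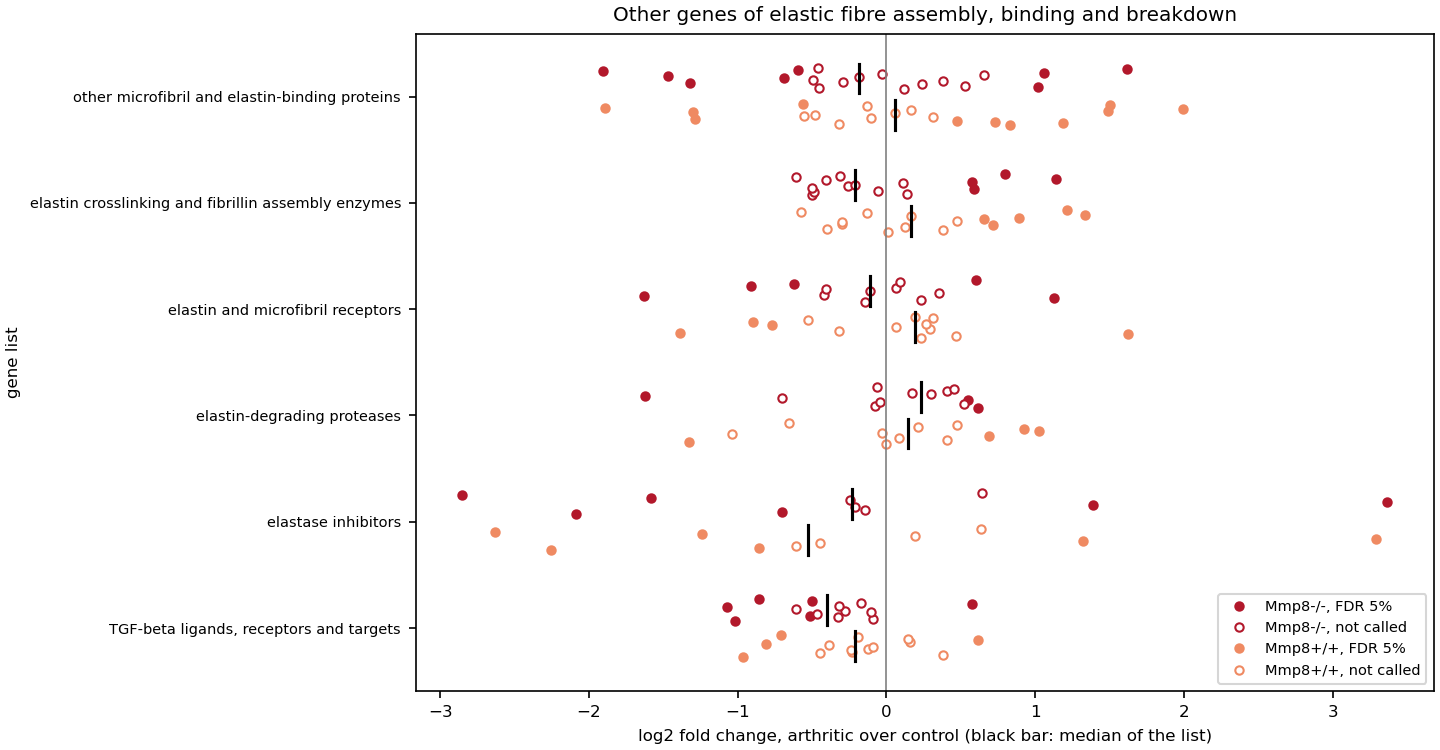
Log2 fold change of arthritic over control mice for the other genes of elastic fibre assembly, binding and breakdown, 1 point per gene in Mmp8-/- (dark red) and Mmp8+/+ (orange) mice, with filled points for an FDR of 5% and a black bar at the median of the list. Enzymes and ADAMTS-like proteins of crosslinking and assembly that passed within a genotype lie above 0, while the other lists hold called genes on both sides.

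Of 15 enzymes and ADAMTS-like proteins of elastin crosslinking and fibrillin assembly, 4 rose and 0 fell in Mmp8-/- mice. Of all features, 7.92% rose and 13.7% fell there. In Mmp8+/+ mice 5 rose and 0 fell, beside 7.2% and 11.7%. Averaged over genotypes, 5 rose and 2 fell, beside 19.5% and 22.6% of all features. The 2 that fell were Adamtsl4 and Thsd4, an ADAMTS-like protein too, at -0.40 (adjusted p = 0.0296 by limma) and -0.44 (adjusted p = 0.0387). The list median was -0.21 in Mmp8-/- and 0.16 in Mmp8+/+ mice. Lox, the lysyl oxidase that crosslinks elastin and collagen, rose by 0.58 (SE 0.193, adjusted p = 0.0457 by limma) in Mmp8-/- and 0.89 (adjusted p = 0.00535) in Mmp8+/+ mice. Loxl3, of the same family, rose by 1.14 in Mmp8-/- and 1.34 in Mmp8+/+ mice. Tll1, a tolloid protease that activates lysyl oxidase, rose by 0.80 in Mmp8-/- and 1.22 in Mmp8+/+ mice, and Adamtsl3, an ADAMTS-like protein, by 0.59 in Mmp8-/- and 0.72 in Mmp8+/+ mice. The count of 4 in Mmp8-/- mice ranged between 2 and 6 with single mice left out. It was 2 without Mmp8+/+ control mouse 2, the array labelled Mmp8-/- control mouse 1, arthritic Mmp8+/+ mouse 2 or 3, or arthritic Mmp8-/- mouse 2.

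Receptors and proteases are counted here beside all features, of which 7.92% rose and 13.7% fell in Mmp8-/- mice. In Mmp8+/+ mice 7.2% rose and 11.7% fell. Of 13 receptors for elastin and microfibrils, 2 rose and 3 fell in Mmp8-/- mice and 1 rose and 3 fell in Mmp8+/+ mice. The 5 calls in Mmp8-/- mice were 2 without the array labelled Mmp8-/- control mouse 1 or 2 or without arthritic Mmp8-/- mouse 1, and 3 without arthritic Mmp8+/+ mouse 1. Itga5, the alpha chain of the fibronectin receptor, rose by 1.13 in Mmp8-/- and 1.62 in Mmp8+/+ mice. Itga8, the integrin alpha8 chain, fell, with log2 changes of -1.63 in Mmp8-/- and -1.39 in Mmp8+/+ mice. Itgb6, the beta6 chain of an integrin that activates latent TGF-beta, fell too, with -0.91 in Mmp8-/- and -0.90 in Mmp8+/+ mice. Of 12 proteases that degrade elastin, 2 rose and 1 fell in Mmp8-/- and 3 rose and 1 fell in Mmp8+/+ mice. The 3 calls in Mmp8-/- mice were 1 without the array labelled Mmp8-/- control mouse 1 or 2, and 5 without mouse 3. Ctss, the macrophage elastase cathepsin S, was the 1 protease that passed in both, at 0.55 (SE 0.158, adjusted p = 0.0255 by limma) in Mmp8-/- and 0.69 (adjusted p = 0.00757) in Mmp8+/+ mice. Mmp12, the macrophage metalloelastase, fell in Mmp8-/- mice with a log2 change of -1.62 (SE 0.219, adjusted p = 0.000181 by limma). In Mmp8+/+ mice its log2 change was -0.03 (SE 0.219, adjusted p = 0.932), and the groups overlapped. The difference between the genotypes was -1.59 and did not pass (adjusted p = 0.729).

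Of 10 elastase and metalloproteinase inhibitors, 2 rose and 4 fell in each genotype. The shares of all features were 7.92% and 13.7% in Mmp8-/- and 7.2% and 11.7% in Mmp8+/+ mice. Timp1 rose by 3.37 (SE 0.178, adjusted p = 6.44e-08 by limma) in Mmp8-/- and 3.29 (adjusted p = 6.72e-08) in Mmp8+/+ mice. Timp4, Timp3 and the general protease trap A2m fell, with log2 changes of -2.85, -1.58 and -2.09 in Mmp8-/- mice and -2.63, -1.24 and -2.26 in Mmp8+/+ mice. Slpi, the secretory inhibitor of neutrophil elastase, rose by 1.39 in Mmp8-/- and 1.32 in Mmp8+/+ mice. Of 14 TGF-beta ligands, receptors and targets, 1 rose and 5 fell in Mmp8-/- mice, beside 7.92% and 13.7% of all features. In Mmp8+/+ mice 1 rose and 3 fell, beside 7.2% and 11.7%. The 4 calls in Mmp8+/+ mice ranged between 2 and 5 with single mice left out. They were 2 without Mmp8+/+ control mouse 1 or 2 or without arthritic Mmp8+/+ mouse 1 or 2. The ligand Tgfb2 and the coreceptor Tgfbr3 fell in both genotypes, as did Ccn2, a target encoding connective tissue growth factor, with log2 changes of -1.07, -0.86 and -1.02 in Mmp8-/- and -0.81, -0.71 and -0.97 in Mmp8+/+ mice. Tgfbi, a secreted target, rose by 0.57 in Mmp8-/- and 0.62 in Mmp8+/+ mice. No gene of these lists passed for either genotype comparison or for the interaction. Without the 3 arrays against their labels, which leaves 1 Mmp8-/- control mouse, fewer genes of each list passed in Mmp8-/- mice. Fewer of all features passed there too.

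**Figure D4:**
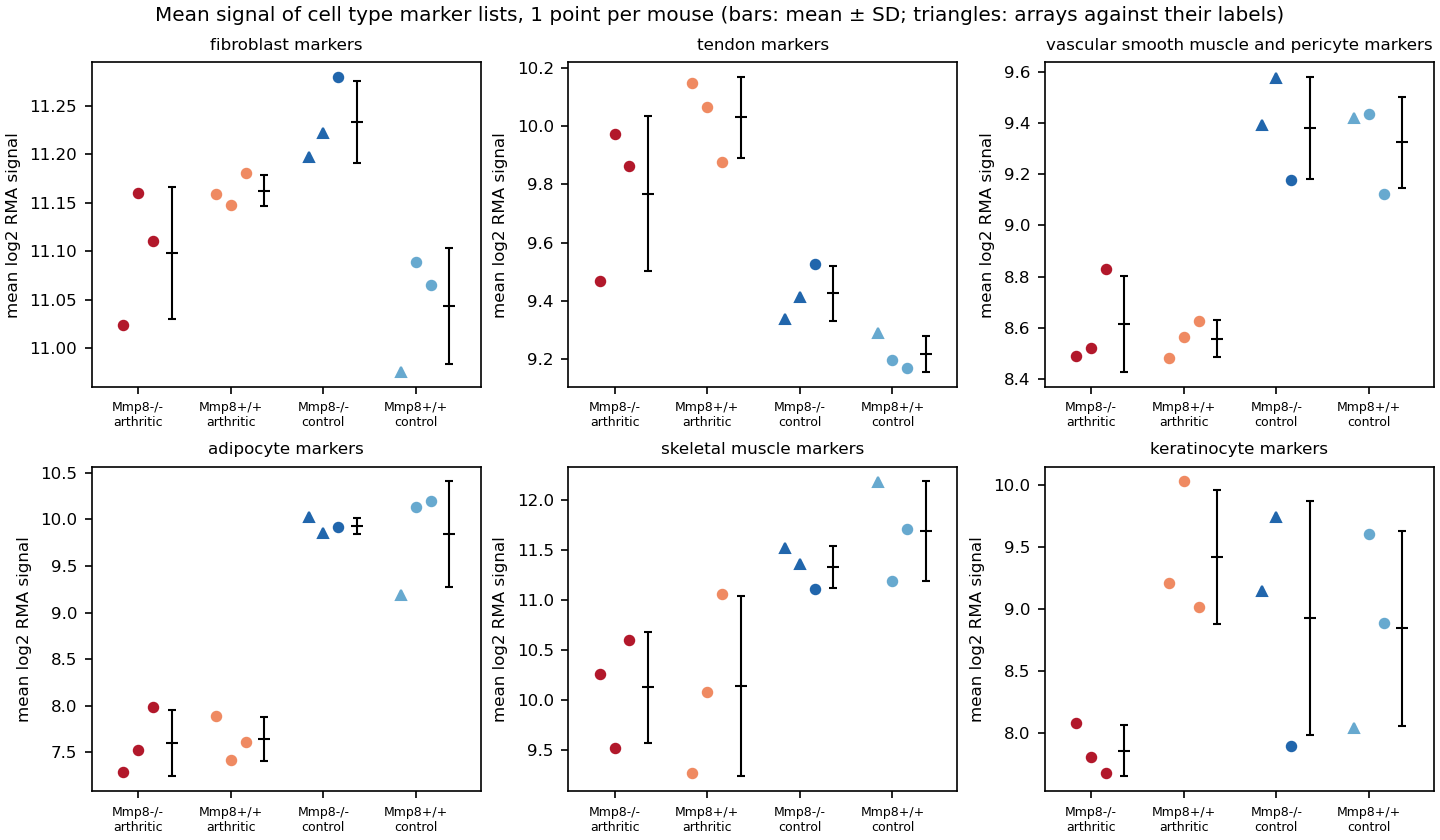
Mean log2 RMA signal of 6 cell type marker lists in each mouse, 1 panel per list with its own vertical axis and 1 point per mouse, with the group mean and SD (n = 3); triangles are the 3 arrays that go against a label. Tendon markers lie higher in arthritic than control mice apart from 1 arthritic Mmp8-/- mouse, while vascular smooth muscle, adipocyte and skeletal muscle markers lie lower.

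Markers of the tissues that make elastic fibres did not move as one. Their counts stand beside all features, of which 7.92% rose and 13.7% fell with arthritis in Mmp8-/- mice. In Mmp8+/+ mice 7.2% of all features rose and 11.7% fell. Vascular smooth muscle and pericyte markers averaged 8.49 to 8.83 in arthritic Mmp8-/-, 8.48 to 8.63 in arthritic Mmp8+/+, 9.18 to 9.57 on the arrays labelled Mmp8-/- control and 9.12 to 9.43 in Mmp8+/+ control mice, and 5 of 9 fell in Mmp8-/- and 4 of 9 in Mmp8+/+ mice. These lower values stood beside higher Eln and lower Fbln5 in the same mice. Tendon markers averaged 9.47 to 9.97 in arthritic Mmp8-/-, 9.88 to 10.15 in arthritic Mmp8+/+, 9.34 to 9.53 on the arrays labelled Mmp8-/- control and 9.17 to 9.29 in Mmp8+/+ control mice. Of the 5 tendon markers 2 rose in Mmp8-/- and 3 in Mmp8+/+ mice, beside the higher Eln, Fbn2, Ltbp2 and Fbln2. None was called lower, but in Mmp8-/- mice Tnmd and Fmod averaged lower with arthritis. Tnmd was at 8.82 against 9.06 on the arrays labelled control, and Fmod at 11.34 against 11.49. Fibroblast markers, among them the collagen I and III chains, had a list median of -0.05 in Mmp8-/- mice, with 1 of 9 higher and 2 lower, and of 0.17 in Mmp8+/+ mice, with 3 higher and 1 lower. Of 8 endothelial markers, 0 rose and 2 fell in Mmp8-/- mice, and 1 rose and 1 fell in Mmp8+/+ mice.

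Adipocyte markers fell in both genotypes, 7 of 7 in each, with list medians of -2.40 in Mmp8-/- and -2.21 in Mmp8+/+ mice, beside the lower Efemp1 and Fbln5. Of all features, 7.92% rose and 13.7% fell in Mmp8-/- mice, and 7.2% rose and 11.7% fell in Mmp8+/+ mice. Skeletal muscle markers fell for 3 of 7 in Mmp8-/- and 7 of 7 in Mmp8+/+ mice, and osteoblast markers for 4 of 5 in each. Of 3 erythroid markers tested, 1 fell in Mmp8-/- and 3 in Mmp8+/+ mice, with medians of -0.75 in Mmp8-/- and -2.05 in Mmp8+/+ mice. Of 7 neutrophil markers, 2 rose and 0 fell in Mmp8-/- and 2 rose and 1 fell in Mmp8+/+ mice. The 2 that rose were Csf3r, the receptor for granulocyte colony-stimulating factor, and the chemokine receptor Cxcr2, by 1.22 and 1.72 in Mmp8-/- and by 1.35 and 1.34 in Mmp8+/+ mice. The neutrophil list median was 0.32 in Mmp8-/- and 0.03 in Mmp8+/+ mice. Ngp and Camp averaged lower with arthritis. In Mmp8-/- mice Ngp was at 11.69 against 12.34 on the arrays labelled control, and Camp at 9.13 against 9.44. In Mmp8+/+ mice Ngp was at 11.78 against 12.68, and Camp at 8.88 against 10.34. Of 6 macrophage markers, Cd68 rose and Cd163 fell in each genotype. The part of these tissues and cells in the changes of the elastic fibre genes was not tested. In whole joints, fewer cells of a type and less RNA per cell cannot be told apart.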

How the data were processed

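Ankle joint RNA of 12 mice was hybridized to Affymetrix Mouse Gene 1.0 ST arrays. The authors deposited log2 values from RMA, which corrects background, applies quantile normalization and summarizes probes, for 28853 features in 12 columns. 0 columns were left out. Of these features, 21789 carried a single annotated symbol, 1621 more than 1 and 5443 no symbol, and RefSeq (GRCm38.p6) was used for names and promoters.

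Tests covered the 18495 named features of highest mean (5.29 or above), the number the methods kept, with limma 3.58.1 in R 4.3.3, with 4 group means over 12 arrays and 8 residual degrees of freedom. P-values are two-sided, adjusted by Benjamini-Hochberg over all features tested at an FDR of 5%. The procedure was tested on simulated data.

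Each gene stands for its feature with that symbol alone and, of several, the highest mean. Of each list, up to 4 genes passing in the same direction in both genotypes with the largest averaged change were named, and for each elastic fibre gene up to 3 with the nearest profile. Mfap2, Emilin1, Mmp12, Slpi, Adamtsl4 and Thsd4 were named after their values were seen. So were Chad, Acan, Csf3r, Cxcr2, Ngp, Camp, Cd68 and Cd163 among the markers. The genes and lists were chosen with earlier results of these data known. Loxl2, Serpina1a and Serpina1b were not analysed here. Labels gave no replicate numbers. Alternatives were other fits, filters and normalizations, and arrays left out. The number of arrays limits the precision.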

Additional observations from a re-analysis of the deposited data

How the results depend on the processing

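The number of elastic fibre genes passing in arthritic against control Mmp8+/+ mice, 7 by limma, was 4 by ordinary linear regression and 4 at an FDR of 1%. It ranged between 4 and 7 with single mice left out, 4 being without Mmp8+/+ control mouse 2, and was 5 without both Xist arrays. In Mmp8-/- mice the number, 6, ranged between 5 and 6 with single mice left out. It was lower without the 3 arrays against their labels, a setting that keeps 1 Mmp8-/- control mouse. Fewer of all features passed in that setting too. Averaged over genotypes the number of elastic fibre genes passing lay between 6 and 8 over all settings. For the genotype comparisons and the interaction that number was 0 in every setting run. Signs turned with single mice left out for Fbln1 in Mmp8-/- mice (-0.0113 to 0.27), for Efemp1 between arthritic genotypes (-0.0481 to 0.27) and for the interaction of Efemp1 (-0.21 to 0.29), none of them called. Eln, Fbn2, Ltbp2 and Fbln2 in Mmp8+/+ mice, and Ltbp2 and Fbln2 in Mmp8-/- mice, passed an FDR of 5% in every setting run. By ordinary linear regression Fbln5, Mfap5 and Efemp1 lost their calls in Mmp8+/+ mice (adjusted p = 0.0687, 0.0540 and 0.0579) and Efemp1 in Mmp8-/- mice (0.0615). Other scalings moved the median of all features by under 0.07. Other features of a gene could not be tried, each gene having 1. No paired analysis was run, since each array came from a different mouse.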

Other observations

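Genes outside the elastic fibre had profiles close to those of its members over the 12 arrays, each profile centred on its own mean. The nearest to Eln were Plekhg4, at a root mean square difference of 0.122 log2 units, and Spon1 and Thbs4, both at 0.138. Thbs4, a thrombospondin of tendon, was also among the 3 nearest to Fbln2 (0.163) and Ltbp2 (0.228), and rose by 1.05 in Mmp8-/- and 1.47 in Mmp8+/+ mice. The nearest to Fbn2 was Igsf10, at 0.212, with the lysyl oxidase Loxl3 the third at 0.223. Adamts4, an aggrecanase, was nearest to Ltbp2 at 0.225, and Nek6 to Fbln2 at 0.162.

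Of the genes that fell, Efemp1 was nearest to Me1, the malic enzyme that supplies NADPH for lipid synthesis, at 0.109, and Fbln5 to Taok2, a kinase, at 0.110. Me1 had log2 changes of -1.06 in Mmp8-/- and -0.89 in Mmp8+/+ mice. Cav2, a caveolin, was the third nearest to Efemp1 at 0.148. Mfap5 was nearest to Ptn, the growth factor pleiotrophin, at 0.128 and Fbln1 to Itsn1 at 0.135. These values describe likeness over arrays that share the arthritis effect.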
